A study of Mus musculus with 6 samples.

Results

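Interferon response and antigen presentation genes were followed in NCI-H2228 xenografts treated with CH5424802, an ALK inhibitor later named alectinib. The genes are 48 symbols named in a list: the class I HLA heavy chains and their light chain, the genes that supply them with peptide, the class II invariant chain and regulators of both classes, PD-L1, the guanylate-binding proteins, the interferon transcription factors and the interferon effectors. Of the 48, 42 passed the filter on low levels and were tested, among 10271 tested genes in all. NCI-H2228 is a line from a human lung adenocarcinoma with the EML4-ALK fusion. The tumours grew under the skin of SCID mice, which lack functional T and B cells but keep natural killer cells and macrophages. The 3 groups were NCI-H2228 xenografts of mice given 20 mg/kg CH5424802, 4 mg/kg CH5424802 or the vehicle alone, with 2 arrays each, all taken 6 h after the oral dose. The age and sex of the mice are not given in the labels. All groups share the one cell line and the immunodeficient host, so they stand for 1 human tumour line.

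Interferons are secreted proteins that bind receptors on the cell surface. The receptors activate JAK kinases, which phosphorylate STAT proteins. STAT proteins bound to GAS elements carry the response to interferon gamma, and a complex of STAT proteins with IRF9, bound to ISRE elements, carries the response to type I interferons. The genes they switch on include antiviral effectors, such as the OAS, IFIT and MX proteins, and most of the machinery that cuts proteins into peptides, carries these into the endoplasmic reticulum and loads them on class I HLA molecules for display to T cells. Tumour cells in culture often keep some of this programme switched on without added interferon, and its level bears on how T cells see them.

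Expression was measured on arrays of human probe sets, as GCRMA intensities on a linear scale, and compared as log2 values. The labels name the mouse as organism; how mouse transcripts read on the human probe sets was not measured. Whether the replicate arrays came from different mice is not stated in the labels. The p-values therefore measure the spread between arrays alone, and that spread may be technical. In bulk tumour RNA, fewer cells of a type and less RNA per cell cannot be told apart. The 18S ribosomal RNA control had intensities of 1713 and 4058 with vehicle, 489 and 374 at 4 mg/kg, then 573 and 637 at 20 mg/kg. It lay lower in all treated arrays, and its part in the results was not tested. The 8 epithelial markers were all tested, and their summed intensity was 73740 to 81870 with vehicle, 79780 to 82070 at 4 mg/kg and 62440 to 71800 at 20 mg/kg. Of these 8, KRT18, a keratin of simple epithelia, passed the test at 20 mg/kg, 2.90-fold lower (log2 -1.54, SE 0.18, adjusted p = 0.0416). Both 20 mg/kg arrays lay below both vehicle arrays for 5 of the 8 and above them for EPCAM (log2 0.50, adjusted p = 0.103) and CDH1 (log2 0.23), which did not pass. Markers of leukocytes had low sums, 245 in both vehicle arrays, 229 to 259 at 4 mg/kg and 240 to 241 at 20 mg/kg. Of 15 leukocyte markers 4 were tested and none passed, and CD3D, NKG7, CD163 and TYROBP lay at the floor of the intensity scale (4.578) on all 6 arrays. Fibroblast sums were 36660 to 39430, 36410 to 37590 and 35940 to 40330 in the same dose order, and endothelial sums 502 to 552, 450 to 557 and 502 to 511. Neither list had a marker past the test, and PDGFRB and VWF were at the floor on all arrays. LUM, THY1, CDH5 and TEK also lay under the level filter. Most of the fibroblast sum came from COL1A1 (33390 and 35340 with vehicle), while DCN read 63.26 on all 6 arrays. Each gene's level is the level of 1 probe set, so levels are compared here between arrays and never between genes.

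At 20 mg/kg against vehicle, 4 of the 42 genes passed the test (limma, adjusted p under 0.05 over all genes). GBP2, an interferon-induced GTPase, was 4.03-fold higher, and ERAP2, an aminopeptidase that trims peptides for class I HLA molecules, was 1.81-fold higher. CD274, which encodes the checkpoint ligand PD-L1, was 1.74-fold lower, and DTX3L, a ubiquitin ligase that acts with PARP9, was 1.29-fold lower. The other 38 genes did not pass. The 4 calls are 9.52% of the genes, against 4.33% (445 of 10271) of all tested genes. The median difference over the 42 genes was -0.01 on the log2 scale and that over all tested genes was 0.00. Of the 42 differences, 31 lay within 0.5 log2 units of 0. At 4 mg/kg against vehicle, 1 of the 42 genes, ERAP2, passed, which is 2.38% against 0.0584% (6 of 10271) of all tested genes. Both comparisons use the same vehicle arrays. Leaving out an array of the dose that is not compared gives the same fit as the 4 compared arrays alone. The difference then stays the same and only its error changes, so here and below this is not a separate check. The 4 calls at 20 mg/kg became 0 on leaving out either 20 mg/kg array, 1 without vehicle replicate 2 or either 4 mg/kg array, and 5 without vehicle replicate 1. The 1 call at 4 mg/kg was lost without vehicle replicate 2, replicate 2 of 4 mg/kg or either 20 mg/kg array.

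ERAP2 read 4322 and 4348 at 20 mg/kg, against 2395 on both vehicle arrays. The 4 mg/kg arrays read 4235 and 4451. All 4 treated arrays lay close together and above both vehicle arrays. ERAP2 differed from vehicle by 0.86 log2 units at 20 mg/kg (SE 0.03, 95% interval 0.76 to 0.95, adjusted p = 0.0104) and 0.86 at 4 mg/kg (SE 0.03, 0.77 to 0.95, adjusted p = 0.0485). Between 20 and 4 mg/kg the difference was 0.00 with an interval of -0.09 to 0.09. The vehicle arrays gave the same value to the last deposited digit, which median polish can produce, so the spread behind these errors may be understated. The call at 20 mg/kg was lost without vehicle replicate 2 (adjusted p = 0.0508) and without either 20 mg/kg array (0.0757 each), and over all alternatives the adjusted p ran from 0.00241 to 0.802. The call at 4 mg/kg was lost on leaving out vehicle replicate 2 (adjusted p = 0.106), replicate 2 of 4 mg/kg (0.0856) or either 20 mg/kg array (0.174 each), within a range of 0.0164 to 0.794.

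GBP2 read 418 and 405 at 20 mg/kg, against 118 and 89.0 with vehicle. The 4 mg/kg arrays read 138 and 150. The groups did not overlap, and the arrays stood in the order of dose. The log2 difference at 20 mg/kg was 2.01 (SE 0.16, 1.56 to 2.45, adjusted p = 0.0246). The lower dose gave 0.49 (SE 0.16, 0.05 to 0.94, adjusted p = 0.261), which did not pass. The difference between 20 and 4 mg/kg was 1.51 (1.07 to 1.96, adjusted p = 0.0812), also without passing. The call at 20 mg/kg was lost without either 4 mg/kg array (adjusted p = 0.0752 each), 20 mg/kg replicate 1 (0.137) or replicate 2 (0.115), within a range of 0.000278 to 0.229 over all alternatives.

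CD274 read 111 and 122 at 20 mg/kg, against 190 and 214 with vehicle. Both 4 mg/kg arrays read 135, a tie that median polish can produce, so the spread behind the errors below may be understated. All treated arrays lay below both vehicle arrays. On the log2 scale CD274 differed by -0.79 at 20 mg/kg (SE 0.08, -1.03 to -0.55, adjusted p = 0.0376) and -0.58 at 4 mg/kg (SE 0.08, -0.82 to -0.34, adjusted p = 0.150). The difference between the doses was -0.22 (-0.46 to 0.02, adjusted p = 0.428). Without vehicle replicate 1 the call at 20 mg/kg held (adjusted p = 0.0442). It was lost without vehicle replicate 2 (0.0999), either 4 mg/kg array (0.0989 each), 20 mg/kg replicate 1 (0.156) or replicate 2 (0.115), within a range of 0.00331 to 0.640.

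DTX3L read 2431 and 2538 at 20 mg/kg, against 3157 and 3255 with vehicle. Its 4 mg/kg arrays read 3067 and 3098. Both 20 mg/kg arrays stood apart from the other 4. On the log2 scale it differed by -0.37 at 20 mg/kg (SE 0.03, -0.46 to -0.27, adjusted p = 0.0315) and -0.06 at 4 mg/kg (adjusted p = 0.512). Between 20 and 4 mg/kg it was -0.31 (-0.41 to -0.21, adjusted p = 0.0887). Leaving out vehicle replicate 1 kept the call (adjusted p = 0.0476), and leaving out vehicle replicate 2 (0.0999), either 4 mg/kg array (0.0811 each), 20 mg/kg replicate 1 (0.118) or replicate 2 (0.0925) lost it, within a range of 0.0284 to 0.118.

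**Figure D1:**
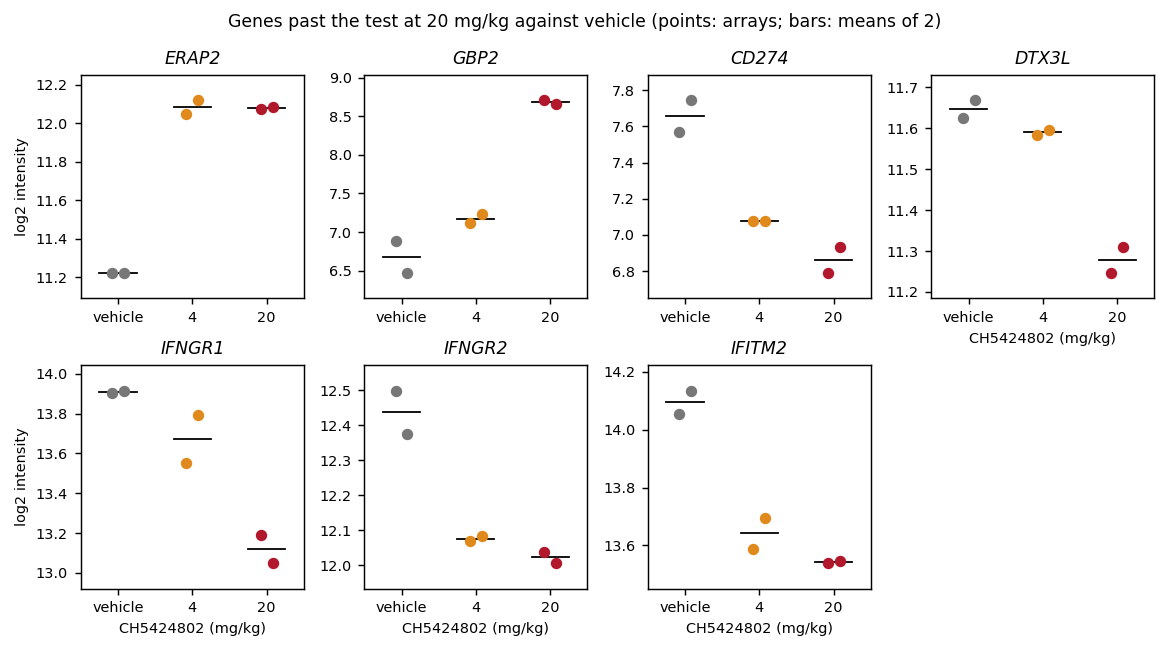
The log2 intensity (vertical axis) of ERAP2, GBP2, CD274, DTX3L, IFNGR1, IFNGR2 and IFITM2 by dose in mg/kg (horizontal axis), with a point for each array and a bar for the mean of the 2 arrays of a group. ERAP2 is at about the same height at both doses, GBP2 stands apart at 20 mg/kg, and DTX3L is lower at 20 mg/kg than on the other 4 arrays.

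Genes with several probe sets gave different readings on them. ERAP2 has 5 probe sets. The brightest is the one described, 1 lay at the floor, and the other 3 differed from vehicle at 20 mg/kg by 0.47, 0.39 and 0.08 on the log2 scale. The same 3 differed at 4 mg/kg by 0.50, -0.28 and 0.09. The second probe set of GBP2 differed by 0.91 at 20 mg/kg and by -0.18 at 4 mg/kg, so the direction at 4 mg/kg differs between the probe sets. The second probe set of CD274 differed by -0.05 at 20 mg/kg and 0.00 at 4 mg/kg. DTX3L has 1 probe set. The transcript forms that each probe set reads were not analysed here, and the size of the ERAP2, GBP2 and CD274 differences is that of the brightest probe set.

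**Figure D2:**
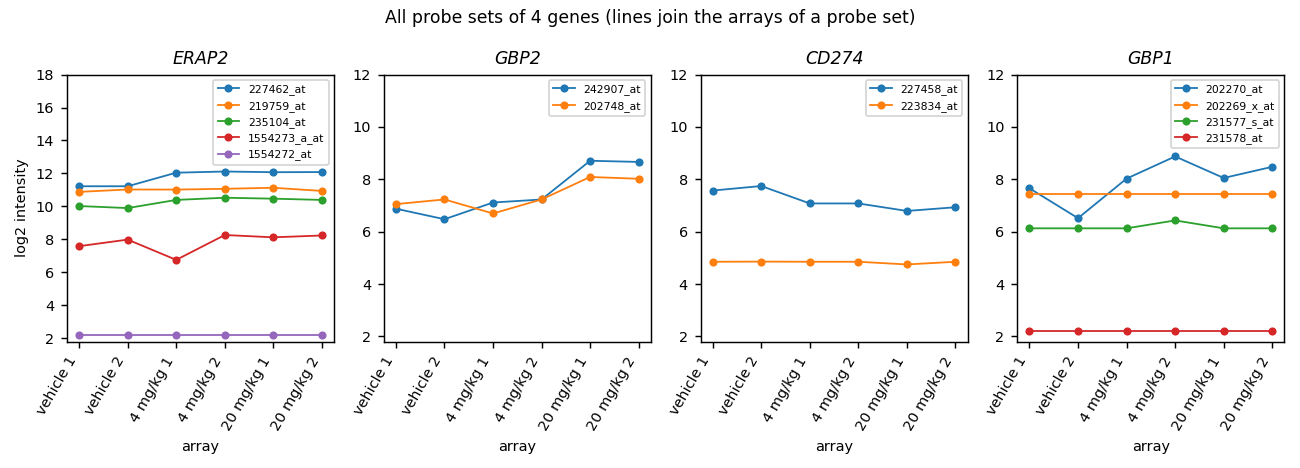
The log2 intensity (vertical axis) in each of the 6 arrays (horizontal axis, vehicle to 20 mg/kg) on every probe set of ERAP2, GBP2, CD274 and GBP1, with a point per array and a line joining the arrays of a probe set. The brightest probe set of ERAP2 lies higher at both doses than with vehicle, both GBP2 probe sets are highest at 20 mg/kg, and the second CD274 probe set is nearly flat.

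The class I molecules themselves lay within 0.5 log2 units of vehicle at both doses. HLA-B and HLA-C encode classical class I heavy chains, HLA-E encodes the ligand of the NK cell receptor NKG2A, HLA-F encodes another non-classical chain, and B2M encodes the shared light chain. None of the 5 passed in any comparison. At 20 mg/kg the log2 differences ran from -0.04 for HLA-F to 0.09 for B2M, with 95% intervals of -0.26 to 0.19 for HLA-F, -0.21 to 0.21 for HLA-B, -0.04 to 0.11 for HLA-C, -0.30 to 0.47 for HLA-E and -0.19 to 0.38 for B2M. At 4 mg/kg all 5 differences were below 0, from -0.17 for HLA-F to -0.01 for HLA-C. Both arrays of HLA-B, HLA-F and B2M lay below both vehicle arrays without passing the test, where 14.8% of all tested genes did so. The second HLA-B and B2M probe sets also lay wholly below vehicle at that dose. The third HLA-B probe set (0.04) and the second HLA-F probe set (-0.03) overlapped with vehicle. B2M had log2 intensities of 15.19 and 15.16 with vehicle, 14.99 and 15.12 at 4 mg/kg, and at 20 mg/kg 15.39 and 15.15, so the 20 mg/kg arrays lay above and just below the vehicle arrays. The probe sets of the HLA heavy chains can cross-hybridise among these near-identical genes, so the values of single HLA genes are uncertain. HLA-C read the highest intensity of the whole array on vehicle replicate 1 (43470) and on both 4 mg/kg arrays (43100 and 42430). Whether probe sets this close to the top of the intensity scale can show a difference was not tested.

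Peptide supply was read from 9 tested genes, of which ERAP2 alone passed, at each dose. ERAP1, the partner aminopeptidase of ERAP2, had log2 intensities of 9.93 and 9.98 with vehicle, 9.20 and 10.02 at 4 mg/kg, and at 20 mg/kg 10.04 and 10.03. Its difference was 0.08 at 20 mg/kg (adjusted p = 0.961) and -0.35 at 4 mg/kg (adjusted p = 0.590). Without the low array, replicate 1 of 4 mg/kg, ERAP1 differed by 0.07 at that dose. The 4 other ERAP1 probe sets differed by 0.60, -0.32, 1.19 and 0.00 at 20 mg/kg, so its direction depends on the probe set. TAP1 and TAP2 form the transporter that carries peptides into the endoplasmic reticulum. TAP1 read 7.94 on all 6 arrays, a tie that median polish can produce, so this reading does not show that its level was constant. TAP2 had 8.86 and 8.92 at 20 mg/kg against 9.22 and 9.26 with vehicle (log2 difference -0.35, SE 0.14, adjusted p = 0.240). TAPBP encodes tapasin, which bridges the transporter and class I molecules; it differed by -0.23 at 20 mg/kg (adjusted p = 0.639) and by -0.53 at 4 mg/kg (adjusted p = 0.438).

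PSMB8, PSMB9 and PSMB10 encode the catalytic subunits of the immunoproteasome, the form of the proteasome induced by interferon gamma. PSMB10 had log2 intensities of 7.28 and 7.51 at 20 mg/kg against 7.52 and 8.19 with vehicle, a difference of -0.45 (SE 0.26, adjusted p = 0.404). PSMB9 differed by -0.19 (adjusted p = 0.421) and PSMB8 by -0.03 (adjusted p = 1.0). PSME1, a subunit of the PA28 activator, differed by -0.03 (adjusted p = 0.611). PSMB5, the constitutive subunit that PSMB8 replaces, differed by -0.59 at 20 mg/kg (SE 0.17, adjusted p = 0.152). None of these passed.

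Of the regulators, NLRC5, the transactivator of class I genes, had log2 intensities of 8.56 and 8.96 at 20 mg/kg against 8.50 on both vehicle arrays, a difference of 0.26 (SE 0.16, adjusted p = 0.439). CIITA, the transactivator of class II genes, lay under the level filter: it read the floor on 5 of the 6 arrays and 5.16 on the first 20 mg/kg array. A floor reading does not show that the CIITA transcript was absent. RFX5, a subunit of the factor that both transactivators work with, read 9.68 on all 6 arrays. Whether its probe set can show a change was not tested. CD74, the invariant chain that escorts class II molecules, differed by -0.01 at 20 mg/kg (-0.19 to 0.16) and by -0.08 at 4 mg/kg. Its log2 intensities were 14.90 and 14.93 with vehicle, 14.76 and 14.91 at 4 mg/kg, and at 20 mg/kg 14.93 and 14.87, so the groups overlapped. Its second probe set lay wholly below vehicle at both doses, by -0.32 at 20 mg/kg and -0.66 at 4 mg/kg.

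GBP1, the other tested guanylate-binding protein, had the largest difference of any listed gene at 4 mg/kg and did not pass. It read 201.7 and 91.5 with vehicle, 261 and 469 at 4 mg/kg, and at 20 mg/kg 265 and 356. All treated arrays were above both vehicle arrays, but the vehicle arrays differed from each other by over 1 log2 unit. GBP1 differed on the log2 scale by 1.18 at 20 mg/kg (SE 0.54, -0.38 to 2.73, adjusted p = 0.316) and 1.36 at 4 mg/kg (SE 0.54, -0.19 to 2.92, adjusted p = 0.348). On each of the other GBP1 probe sets the difference at 20 mg/kg was 0.00, and the faintest of them lay at the floor. The next brightest read a log2 intensity of 7.45 on all 6 arrays, and the third differed by 0.15 at 4 mg/kg. Median polish can produce such ties, so these readings do not show that the GBP1 level was constant. GBP3 lay under the level filter with a mean log2 intensity of 3.84. It read 21.2 and 23.4 at 20 mg/kg against 11.56 and 11.01 with vehicle, and 11.56 on both 4 mg/kg arrays. Without the filter its log2 difference at 20 mg/kg was 0.98 with an adjusted p of 0.0687. For GBP3 and GBP2 the 20 mg/kg arrays stood apart, while for GBP1 the arrays of both doses overlapped.

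The transcription factors of the response did not pass at either dose, and every one had overlapping arrays against vehicle. IRF1, the early mediator of interferon gamma, had log2 intensities of 9.31 and 9.43 with vehicle, 9.14 and 9.33 at 4 mg/kg, and at 20 mg/kg 9.38 and 9.71. At 20 mg/kg the differences were 0.17 for IRF1, 0.14 for IRF2, which opposes IRF1 at many promoters, 0.05 for IRF7, the amplifier of type I interferon, and 0.06 for IRF9. The 4 mg/kg differences were -0.13, 0.12, -0.30 and -0.50 in the same order. IRF9 had 10.42 and 11.19 with vehicle, 9.97 and 10.64 at 4 mg/kg, and at 20 mg/kg 11.09 and 10.64, so its replicates differed from each other by as much as the groups did. STAT2 was not analysed here.

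Among the 19 tested interferon effectors, 1 passed at 20 mg/kg, DTX3L, and none at 4 mg/kg. At 20 mg/kg both arrays lay below both vehicle arrays in 9 of the 19 and above them in 3, where 25.9% and 24.5% of all tested genes did so. Over all 42 genes the counts were 13 below (30.95%) and 9 above (21.43%). The 9 below were OAS1, OAS2, ISG15, UBE2L6, MX1, IFI6, IFI27, PARP9 and DTX3L. The 3 above were IFIT2, IFIT3 and IFIH1. The median difference of the 19 genes was -0.17.

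Of these 9, ISG15 is a ubiquitin-like modifier, and UBE2L6 is an enzyme that conjugates it. ISG15 had log2 intensities of 10.26 and 10.32 at 20 mg/kg against 10.66 and 11.21 with vehicle (difference -0.64, SE 0.21, -1.23 to -0.05, adjusted p = 0.183). UBE2L6 had 10.99 and 11.03 at 20 mg/kg against 11.42 and 11.53 with vehicle (difference -0.47, SE 0.10, -0.76 to -0.17, adjusted p = 0.103). Both were also below 0 at 4 mg/kg, at -0.32 and -0.22. Neither gene passed at either dose.

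OAS1, OAS2 and OAS3 make the messenger that activates RNase L on sensing double-stranded RNA. OAS1 read 1470 on both 20 mg/kg arrays against 2067 and 2427 with vehicle, and 1531 and 1811 at 4 mg/kg. All 4 treated OAS1 arrays lay below the vehicle arrays, with log2 differences of -0.61 at 20 mg/kg (SE 0.12, -0.96 to -0.25, adjusted p = 0.0937) and -0.43 at 4 mg/kg (adjusted p = 0.240). The second OAS1 probe set differed by -0.28 at 20 mg/kg and by -0.13 at 4 mg/kg, where its arrays overlapped with vehicle. OAS2 differed by -0.56 and OAS3 by -0.09 at 20 mg/kg. MX1, a GTPase that blocks influenza virus, had 9.43 and 9.46 at 20 mg/kg against 9.55 and 10.43 with vehicle (difference -0.55, SE 0.37, adjusted p = 0.470). IFI6 differed by -0.22 at 20 mg/kg and -0.57 at 4 mg/kg, and IFI27 by -0.11 and -0.19. PARP9, the partner of DTX3L, had 9.83 and 9.84 at 20 mg/kg against 10.05 and 9.95 with vehicle, a difference of -0.17 (adjusted p = 0.429). The second PARP9 probe set differed by -0.52 at 20 mg/kg, with arrays that overlapped with vehicle.

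Of the 3 genes above vehicle, IFIT2, which binds viral RNA and restrains its translation, read 167 and 140 with vehicle, 269 and 306 at 4 mg/kg, and at 20 mg/kg 269 and 511. All 4 treated arrays were above the vehicle arrays. The log2 difference was 1.28 at 20 mg/kg (SE 0.36, 0.26 to 2.30, adjusted p = 0.148) and 0.91 at 4 mg/kg (SE 0.36, -0.11 to 1.93, adjusted p = 0.341), and the second IFIT2 probe set differed by 0.11 and 0.05. IFIH1, the double-stranded RNA sensor MDA5, had log2 intensities of 8.04 and 7.88 with vehicle, 8.35 and 9.29 at 4 mg/kg, and at 20 mg/kg 8.74 and 8.73 (difference at 20 mg/kg 0.78, SE 0.35, adjusted p = 0.306). IFIT3, the partner of IFIT2, differed by 0.23 at 20 mg/kg and by -0.02 at 4 mg/kg, and IFIT1 by 0.16 and -0.12. The second IFIT3 probe set differed by -0.01 at both doses. None of these genes passed.

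The remaining effectors overlapped with vehicle at 20 mg/kg. These were IFI44, IFI44L, XAF1, SP110, OAS3, IFIT1 and IFI35. IFI35 had the widest spread, with log2 intensities of 9.15 and 10.78 with vehicle, 8.71 and 10.33 at 4 mg/kg, and at 20 mg/kg 9.19 and 9.10, and a difference at 20 mg/kg of -0.81 with an SE of 0.84. XAF1, a pro-apoptotic antagonist of XIAP, read 8.52 and 8.57 with vehicle and 8.57 on both 20 mg/kg arrays. Median polish can produce such ties, so this reading does not show a constant level. The second XAF1 probe set lay wholly above vehicle at 20 mg/kg, by 0.23, and below it at 4 mg/kg, by -0.18. ISG20, an RNA exonuclease, lay under the level filter with a mean log2 intensity of 3.35. IFIT1, at a mean of 5.30, was the tested gene nearest above it. PSME2 and IFI30 were also not analysed here.

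**Figure D3:**
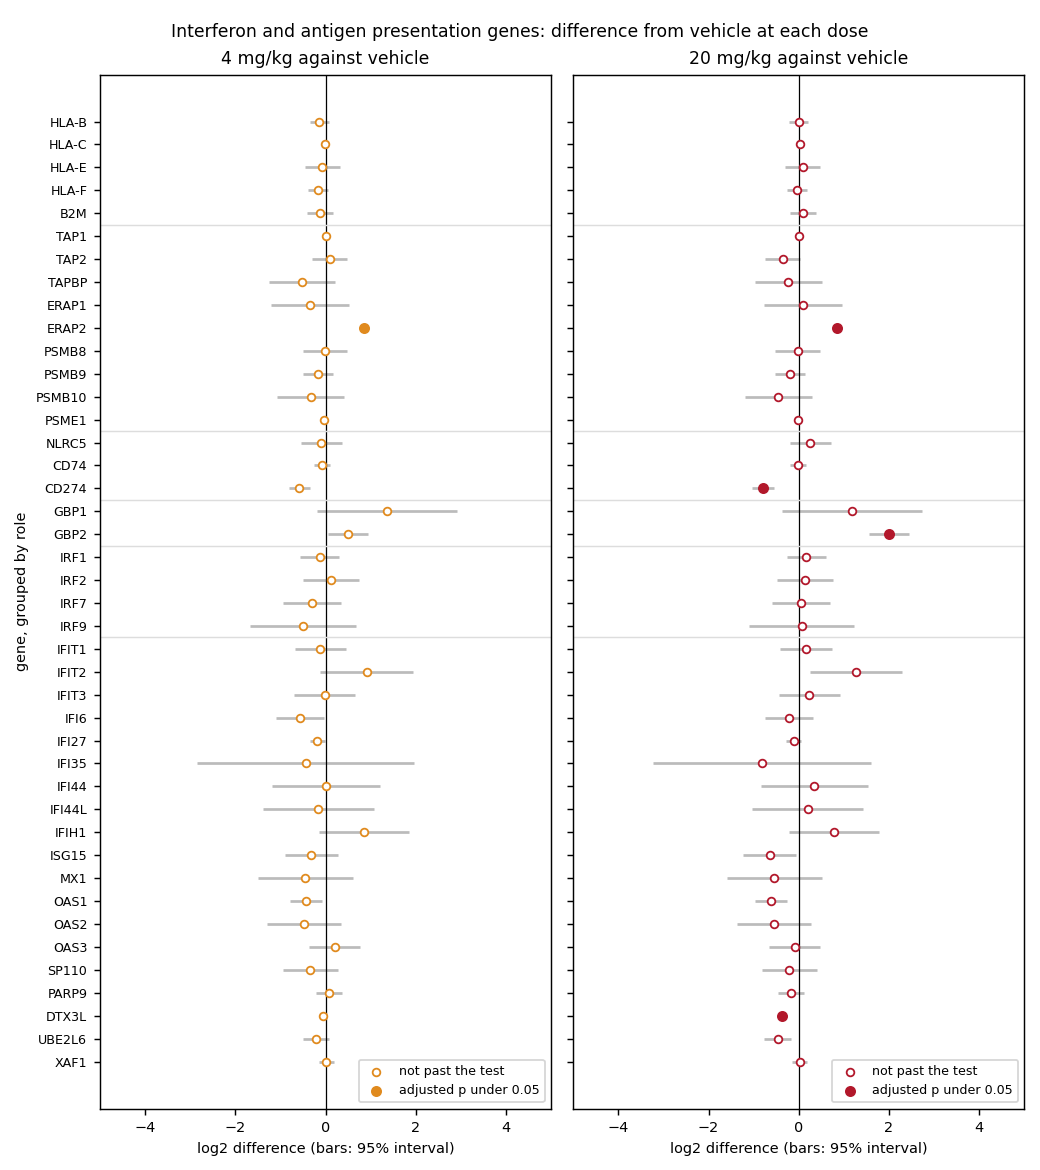
The log2 difference from vehicle (horizontal axis) with its 95% interval for each of the 42 tested genes (vertical axis), at 4 mg/kg on the left and 20 mg/kg on the right, with filled points where the adjusted p was under 0.05. ERAP2 is filled at 4 mg/kg, and ERAP2, GBP2, CD274 and DTX3L are filled at 20 mg/kg.

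**Figure D4:**
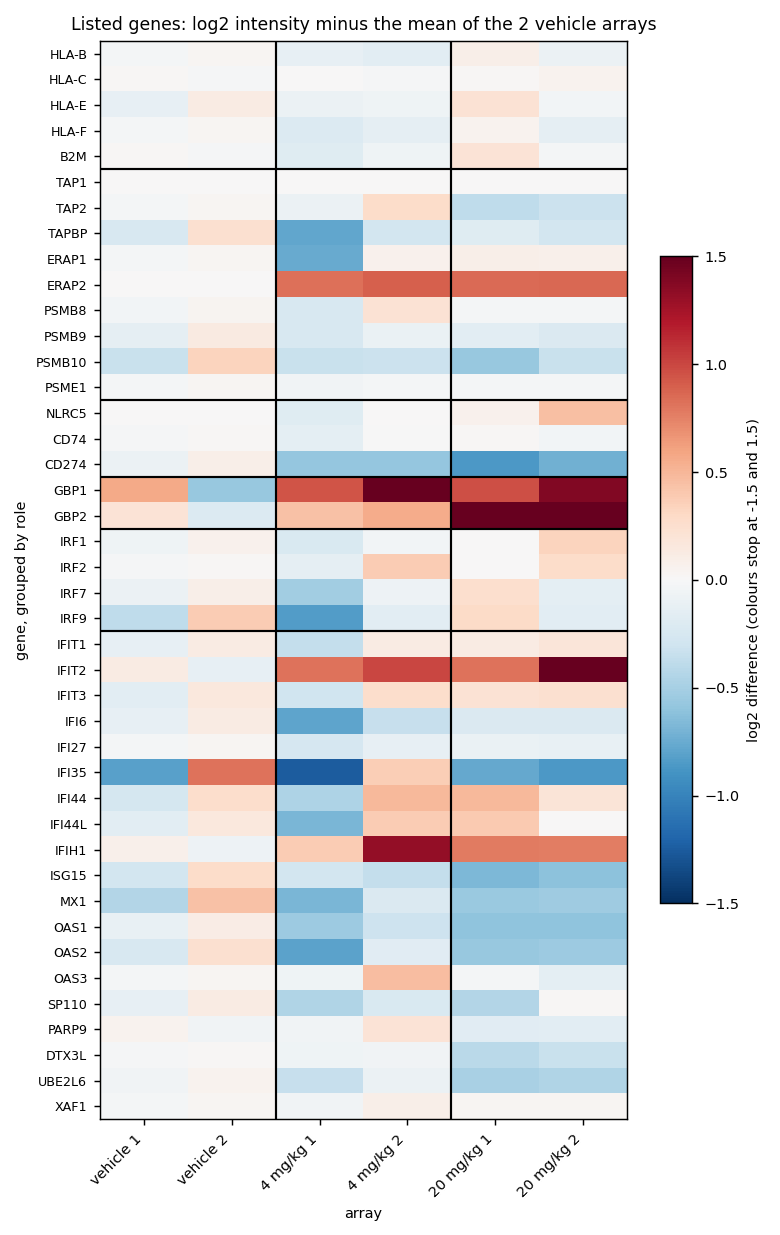
The log2 intensity minus the vehicle mean (colour, stopping at 1.5 either way) of each tested gene in each array, in columns from vehicle to 20 mg/kg. GBP2, GBP1, IFIT2 and IFIH1 show the highest values in treated arrays, and the 2 vehicle columns differ from each other across many effectors.

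As a group, the genes lay slightly under vehicle at 4 mg/kg. Of the 42 differences, 30 were below 0, and the median was -0.12 against 0.00 over all tested genes. Both arrays lay below both vehicle arrays in 11 genes (26.19%) and above them in 5 (11.9%), while 14.8% and 22.8% of all tested genes did so. The median moved with single arrays, to -0.02 without replicate 1 of 4 mg/kg or vehicle replicate 2, to -0.24 without replicate 2 of 4 mg/kg and to -0.20 without vehicle replicate 1, so the size of the shift rests on which array is kept. When each array was centred on its median it was -0.22, with a median of -0.10 over all tested genes. Between 20 and 4 mg/kg none of the 42 genes passed limma's test, 3 had an unadjusted p under 0.05, and 0.37% of all tested genes (38 of 10271) passed. The median of that difference was 0.03, and 40 of 42 lay within 0.5 log2 units.

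Replicate arrays differed along the interferon genes. In the 4 mg/kg group, replicate 2 was above replicate 1 by more than 0.1 log2 units in 31 of 42 genes (73.81%) and below it in 0, against 48.01% and 10.33% of all tested genes. In the vehicle group, replicate 2 was above in 20 of 42 (47.62%) and below in 4, against 31.44% and 24.29%. In the 20 mg/kg group 8 were above (19.05%) and 9 below (21.43%), against 31.02% and 12.09%. Among the 19 effectors, 17 were above at 4 mg/kg (median 0.44) and 12 with vehicle (median 0.25). IFI35 differed between replicates by 1.63 with vehicle and 1.62 at 4 mg/kg, IRF9 by 0.77 and 0.67, and MX1 by 0.89 and 0.47. IFI44L differed by 0.32 and 1.07, while ISG15 differed by 0.55 with vehicle and -0.09 at 4 mg/kg. Across the 42 genes the replicate differences of the vehicle and 4 mg/kg groups had r = 0.338, and r = 0.146 across all tested genes. This is a description across genes, which are not independent. The r of 0.338 rests largely on IFI35, which lay far out in both groups, so it does not show a pattern shared by the listed genes. It was not computed without IFI35. This spread enters the errors of the effectors, and what made the replicates differ was not tested.

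**Figure D5:**
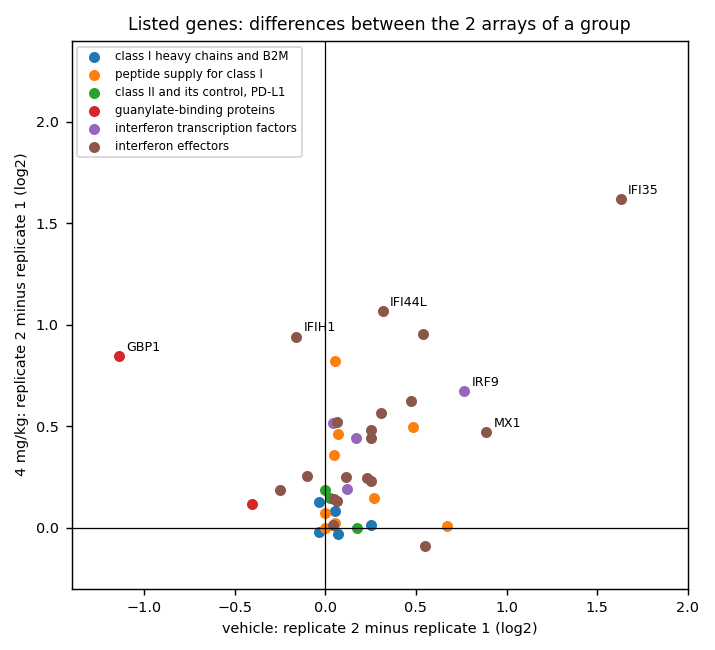
The difference of replicate 2 minus replicate 1 in log2 units for each of the 42 genes, in the vehicle group (horizontal axis) and in the 4 mg/kg group (vertical axis). IFI35 lies far out on both axes at 1.63 and 1.62, and most points lie above 0 on the vertical axis.

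The rest of the pathway was read from 118 further genes, of which 95 were tested. At 20 mg/kg 3 of the 95 passed (3.16%, against 4.33% of all tested genes), all lower. They were IFNGR1 and IFNGR2, the 2 chains of the interferon gamma receptor, and IFITM2, a membrane protein that blocks virus entry. Both arrays lay below both vehicle arrays in 42 of the 95 genes (44.21%, against 25.9% of all tested genes) and above in 22 (23.16%, against 24.5%). The median difference was -0.07. The 3 calls became 0 without vehicle replicate 2 or either 20 mg/kg array, 1 without either 4 mg/kg array and 2 without vehicle replicate 1. None of the 95 passed limma's test at 4 mg/kg (14 had an unadjusted p under 0.05; 2 passed without vehicle replicate 1 or replicate 1 of 4 mg/kg), with 28 wholly lower (29.47%, against 14.8% of all tested genes) and 8 wholly higher (8.421%, against 22.8%), and between 20 and 4 mg/kg none passed either (13 unadjusted; 1 passed without replicate 1 of 4 mg/kg).

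IFNGR1, the chain that binds interferon gamma, read 9338 and 8486 at 20 mg/kg against 15340 and 15460 with vehicle, and 12010 and 14210 at 4 mg/kg. The arrays stood in the order of dose. The log2 difference was -0.79 at 20 mg/kg (SE 0.10, -1.09 to -0.49, 1.73-fold lower, adjusted p = 0.0493) and -0.24 at 4 mg/kg (adjusted p = 0.389). This call was lost without any single one of the 6 arrays (adjusted p 0.0685 to 0.181). It also ended without probe sets that may cross-hybridise, where the probe set that was left differed by 0.03 (adjusted p = 1.0). The next brightest IFNGR1 probe set was lower like the brightest, by -1.01 at 20 mg/kg (limma adjusted p = 0.182) and -0.40 at 4 mg/kg. Over all alternatives the adjusted p of the 20 mg/kg difference ran from 0.00367 to 1.0.

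IFNGR2, the signalling chain, read 4206 and 4115 at 20 mg/kg against 5792 and 5314 with vehicle, and 4297 and 4335 at 4 mg/kg. All 4 treated arrays lay below the vehicle arrays. The log2 difference was -0.42 at 20 mg/kg (SE 0.05, -0.56 to -0.27, 1.33-fold lower, adjusted p = 0.0445) and -0.36 at 4 mg/kg (adjusted p = 0.150). Without vehicle replicate 1 the call held (adjusted p = 0.0344). It was lost without vehicle replicate 2 (0.0513), either 4 mg/kg array (0.109 each), 20 mg/kg replicate 1 (0.186) or replicate 2 (0.175), within a range of 0.0344 to 0.186.

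IFITM2 read 11910 and 11960 at 20 mg/kg against 17020 and 18000 with vehicle, and 12310 and 13280 at 4 mg/kg. The treated arrays lay together, below both vehicle arrays. The log2 difference was -0.55 at 20 mg/kg (SE 0.05, -0.70 to -0.40, 1.47-fold lower, adjusted p = 0.0326) and -0.45 at 4 mg/kg (adjusted p = 0.138). Its probe set may also read other IFITM genes, so the gene is uncertain. The call was lost without any single one of the 6 arrays (adjusted p 0.0515 to 0.160), within a range of 0.00988 to 0.160 over all alternatives.

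Among the 12 tested receptors, kinases and inhibitors, these 2 receptor chains were the calls. JAK1, a kinase shared by all interferon receptors, differed by 0.38 at 20 mg/kg (adjusted p = 0.504), and IFNAR1, a chain of the type I receptor, by -0.07 (adjusted p = 0.508). SOCS1, the feedback inhibitor of JAK kinases, had log2 intensities of 6.58 and 5.75 with vehicle, 5.57 on both 4 mg/kg arrays and 5.27 and 5.48 at 20 mg/kg (difference at 20 mg/kg -0.79, adjusted p = 0.248). None of the 12 tested nucleic acid sensors and adaptors passed limma's test at 20 mg/kg (2 had an unadjusted p under 0.05). Of 41 other interferon-induced genes, IFITM2 was the 1 that passed. None of 30 other antigen presentation genes passed (8 unadjusted), and both arrays lay below vehicle in 18 of these 30 and above in 6, where 25.9% and 24.5% of all tested genes did so.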

How the data were processed

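Gene expression was measured in NCI-H2228 xenograft tumours with 6 arrays. The authors deposited 1 table of linear intensity values, with 54675 probe sets. The submitters' processing notes name GCRMA and R 2.10.0. GCRMA corrects background by probe sequence, quantile-normalizes arrays and summarises probe sets by median polish, so low values pile up at a floor and exact ties occur (3316 of 10271 genes tied in at least 1 group). Intensities were converted to log2. Each gene was represented by its brightest single-gene probe set (41097 had 1 gene, 1801 several, 11777 none listed, from a platform annotation that can be old), with a mean log2 of at least 4. limma 3.58.1 in R 4.3.3 (lmFit, eBayes) was fitted to all 6 arrays, with 3 contrasts, two-sided tests and Benjamini-Hochberg adjustment over 10271 genes at 0.05. Residual degrees of freedom were 3, prior degrees of freedom 0.723, and each SE is pooled over the groups. The fit was also run on simulated data with independent normal noise. That noise had no ties and no floor, so the run did not test their effect on the errors. The number of arrays limits the precision. The members and lists were chosen with earlier results of these data known. All listed genes are named. Of the wider pathway, genes past the test against vehicle and JAK1, IFNAR1, IFNGR1, PSMB5, SOCS1 and RFX5 are named, and HLA-DRA and HLA-DMA were added after their values were seen. Some items are not reported here. No human sequences were used here.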

Additional observations from a re-analysis of the deposited data

How the results depend on the processing

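The brightest-probe-set and level rules, the scale, the fit and each array were varied, and 1 fit, without the genes tied in all 3 groups, was chosen after seeing the data. At 20 mg/kg the 445 genes, 4 listed genes and 3 pathway genes called became 57, 1 and 0 with no level filter. The next brightest probe set of each gene gave 69, 0 and 0. Leaving out sets prone to cross-hybridise gave 282, 4 and 1. With quantile normalization they became 1598, 7 and 13, and with arrays centred on their median 1958, 8 and 15. With only the 4 arrays compared they became 136, 1 and 1. Without tied genes they were 819, 4 and 5. The mean of all probe sets gave 2 listed genes, and a trended robust fit 1 pathway gene. Leave-one-out counts ran from 5 to 802, 0 to 5 and 0 to 2.

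At 4 mg/kg the 6 genes, 1 listed gene and 0 pathway genes became 3, 0 and 0 with no level filter. All 3 counts were 0 with the filter at 6, the mean of all probe sets, log2(value + 16), only the 4 arrays compared or without tied genes. The next brightest probe set gave 0 listed genes. Quantile normalization gave 111, 1 and 0, and centred arrays 766, 4 and 10. Leave-one-out counts ran from 0 to 475, 0 to 1 and 0 to 2.

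For 20 against 4 mg/kg the 38, 0 and 0 became 8, 0 and 0 with no level filter, 0 genes with the next brightest probe set and with only the 4 arrays compared, 330, 1 and 1 with quantile normalization and 494, 1 and 3 with centred arrays. Without tied genes 77 genes and 1 listed gene passed. Leave-one-out counts ran from 0 to 218, 0 to 0 and 0 to 1. Fewer arrays or another set of genes in the fit explain counts only by construction, and other causes were not tested.

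What same-numbered replicates share beyond the number is not stated in the labels. Over all tested genes their deviations correlated at 0.146 (4 mg/kg and vehicle), -0.118 (20 mg/kg and vehicle) and 0.127 (20 and 4 mg/kg). Over the 42 listed genes the value for 4 mg/kg and vehicle was 0.338, which rests largely on 1 gene, IFI35. A shared batch was not tested. With the replicate block, 93 genes, 1 listed gene (ERAP2) and 0 pathway genes passed at 20 mg/kg, and 0 of each in the other comparisons.

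Direction was called turned where both values were at least 0.1 from 0, which held for 9 of 1797 values, all at 4 mg/kg and none past the test. A further 94 values changed sign with one of the pair under 0.1. ERAP1 was 0.56 on its next brightest set and 0.13 when its sets were averaged. GBP2 was -0.18 with the next brightest. IFNGR1 was 0.21 without cross-hybridising sets. Leaving out 1 array, IFI35 ran from -1.26 to 0.37, IFIT1 from -0.36 to 0.13, IFI44L from -0.69 to 0.38 and IRF2 from -0.14 to 0.38. Leaving out 1 array, the median over the listed genes ran from -0.05 to 0.01 at 20 mg/kg, from -0.24 to -0.02 at 4 mg/kg and from -0.04 to 0.19 for 20 against 4 mg/kg.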

Other observations

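The class II HLA genes, which encode the molecules that present peptides to CD4+ T cells, lay under vehicle at both doses without any passing the test. This subset of the antigen presentation genes was chosen after its values were seen, and both comparisons use the same vehicle arrays. Of 10 such genes 9 were tested. Both arrays lay below both vehicle arrays in 8 of 9 at 20 mg/kg (median log2 difference -0.24) and in 7 of 9 at 4 mg/kg (median -0.36), where 25.9% and 14.8% of all tested genes did so. HLA-DRA, the alpha chain of HLA-DR, had log2 intensities of 14.19 and 14.25 with vehicle, 13.68 and 13.99 at 4 mg/kg, and at 20 mg/kg 13.97 and 13.98 (difference at 20 mg/kg -0.24, adjusted p = 0.334). HLA-DMA, a chain of the HLA-DM peptide editor, had 12.35 and 12.59 with vehicle, 11.84 and 12.16 at 4 mg/kg, and at 20 mg/kg 12.07 and 12.07 (difference at 20 mg/kg -0.40, adjusted p = 0.220). Their transactivator CIITA was at the floor on 5 of 6 arrays, a reading that does not show that it was absent. CD74 overlapped with vehicle on its brightest probe set but lay wholly below vehicle on the second at both doses.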
